A study of Mus musculus with 12 samples.

Results

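The 10 genes described here are best known from fat cells: Fabp4, Adipoq, Plin1, Lpl, Lep, Cidec, Cd36, Pparg, Retn and Cfd. They were taken by symbol from the deposited count tables of cultures and of tumors, and all 10 were found among the 39017 genes that each table lists. The samples come from 4T1, a mouse mammary carcinoma line used as a model of triple-negative breast cancer. Of these, 6 are cultures, grown with 10% FBS and lysed at 75% confluency, of which 3 carry the genotype POGZ KO and 3 carry POGZ WT and are titled VC. The other 6 are flash-frozen tumors, again 3 POGZ KO and 3 POGZ WT titled VC, grown from inoculated cells in a mammary fat pad of BALB/c mice 8 weeks old and resected at 28 days. No agent was given to any group, and the labels name neither the way in which POGZ was ablated nor whether a line is 1 clone. Groups are called KO and VC here by their labels alone, and tumors by their titles.

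A white fat cell stores triglyceride in 1 large lipid droplet. Lipoprotein lipase at the vessel wall frees fatty acids from circulating lipoproteins, CD36 takes them up, and FABP4 carries them inside the cell. PPARG is the nuclear receptor that drives the program, perilipin 1 and CIDEC coat and enlarge the droplet, and adiponectin, leptin, resistin and adipsin (the product of Cfd) are secreted. The mammary fat pad is rich in such cells. Some of these genes are also used elsewhere: Fabp4 and Cd36 in capillary endothelium, and Fabp4, Cd36, Lpl and Pparg in macrophages. The comparisons ask how far fat cell RNA is present in tumors and in cultures, and whether it differs between the KO and VC labels.

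Total counts ran from 14724518 to 21863223 in cultures, from 12128993 to 13043831 in KO tumors and from 4712001 to 8338828 in VC tumors, so the VC tumors were the shallowest group. Pogz, the targeted gene, stood at 67.8 to 68.6 CPM (counts scaled to the same library total) in KO cultures and at 48.1 to 52.0 CPM in VC cultures, which goes against the label. In tumors it ran from 84.5 to 131 CPM under KO and from 86.0 to 109 CPM under VC. Every direction below is therefore that of the labels. The epithelial genes Epcam, Krt8 and Krt18 ran from 204 to 873 CPM over all libraries. Of the receptors that define the triple-negative class, Pgr was at 0 to 3.22 CPM, while Esr1 RNA was at 30.7 to 52.1 CPM and Erbb2 at 42.2 to 81.3 CPM. The labels do not state whether libraries of 1 group are from separate cultures or mice, so p-values measure only the spread between them, which may be technical.

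The start regions of 3 genes whose levels differed strongly between tumors are shown because a motif for C/EBP factors, which act beside PPARG in fat cells, is spelled out in them. RefSeq windows, 250 bases before the start site and 50 from it on, on GRCm38.p6, were found for 8 of the 10 genes (11 windows); Fabp4 and Lpl had none. The windows are chr7:79732727-79733026 on the minus strand for Plin1, chr6:113434715-113435014 on the minus strand for Cidec (the first of its pair), and chr6:29059971-29060270 on the plus strand for Lep. They are written 5′ to 3′ in the direction of transcription, and capitals mark matches to TTGCNNAA, searched on both strands.
Plin1: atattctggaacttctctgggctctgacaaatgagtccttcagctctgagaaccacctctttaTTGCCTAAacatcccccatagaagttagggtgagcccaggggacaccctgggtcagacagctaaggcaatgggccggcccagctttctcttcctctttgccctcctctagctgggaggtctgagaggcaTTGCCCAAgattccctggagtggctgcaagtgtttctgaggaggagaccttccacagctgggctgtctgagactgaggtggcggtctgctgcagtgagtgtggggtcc
Cidec: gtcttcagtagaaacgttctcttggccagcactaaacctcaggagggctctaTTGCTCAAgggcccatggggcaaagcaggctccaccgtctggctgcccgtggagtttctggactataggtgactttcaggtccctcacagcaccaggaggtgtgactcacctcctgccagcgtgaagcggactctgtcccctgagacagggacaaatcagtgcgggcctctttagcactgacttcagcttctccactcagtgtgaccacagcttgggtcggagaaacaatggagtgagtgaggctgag
Lep: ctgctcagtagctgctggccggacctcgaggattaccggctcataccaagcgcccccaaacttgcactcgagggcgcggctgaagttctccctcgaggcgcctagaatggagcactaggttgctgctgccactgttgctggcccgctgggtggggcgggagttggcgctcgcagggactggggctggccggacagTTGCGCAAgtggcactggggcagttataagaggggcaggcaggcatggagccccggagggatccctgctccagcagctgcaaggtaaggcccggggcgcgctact
Plin1 holds the motif 187 and 58 bases before its start site, Cidec 198 bases before and Lep 55 bases before. The third Pparg window holds it as well, while it is not spelled out in the windows of Adipoq, Cd36, Retn and Cfd or in the second window of Cidec. Among 32851 RefSeq windows of the same length, 10.8% hold a match. The hexamer AGGTCA, read by nuclear receptors and also searched on both strands, occurs in the Cd36 window and in the first and second Pparg windows, against 16.3% of all windows. The PPAR-RXR direct repeat AGGNCANAGGNCA, on both strands, matched 0 of the 11 windows and 0.381% of all windows, and the TATA box TATAAA, on the plus strand, matched 0 of the 11 and 8.32% of all. A match is a run of letters, not a measured binding site, and the motifs searched can overlap where letters are shared.

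The 10 genes varied over the tumors in much the same order, and that order did not follow the label. Tumors POGZ_KO_8455 and POGZ_KO_8459 held the highest levels of 9 of the 10 genes, the exception being Retn, which was highest in POGZ_VC_8448. Tumor POGZ_KO_8454 lay below POGZ_VC_8447 and POGZ_VC_8448 for 9 of the 10, and POGZ_VC_8451 was the lowest tumor for all 10. POGZ_KO_8454 had 12128993 counts, close to the totals of the other KO tumors.

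**Figure D1:**
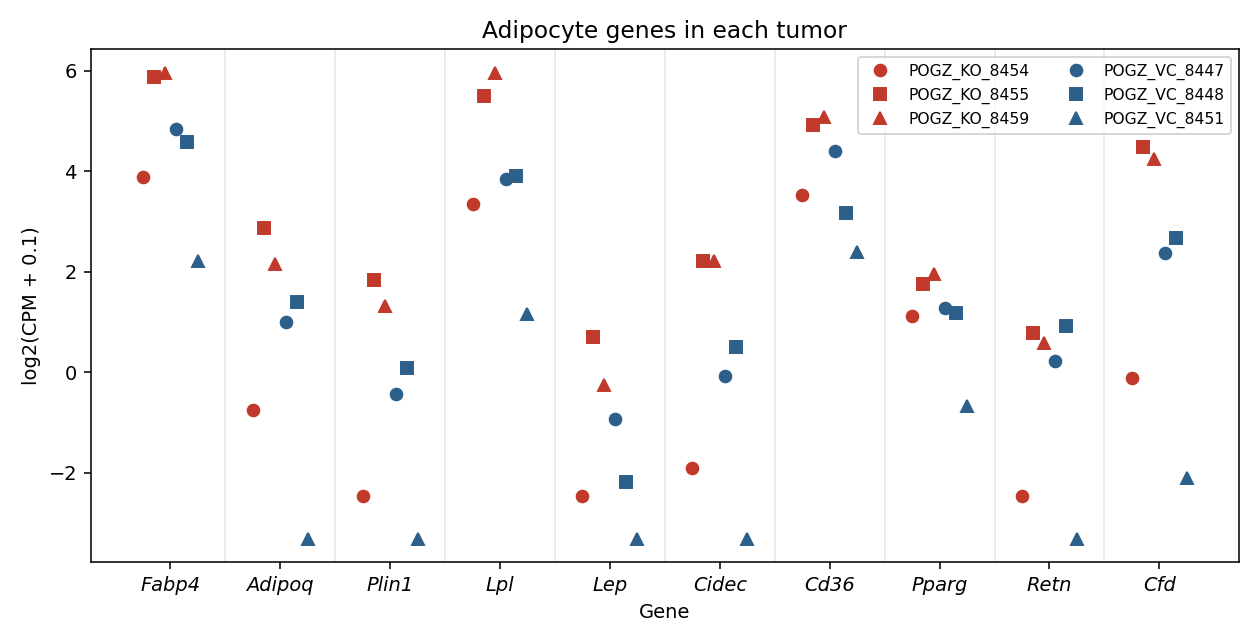
Level of each gene in each of the 6 tumors, as log2(CPM + 0.1) on the vertical axis, with KO tumors in red and VC tumors in blue and 1 point per tumor. POGZ_KO_8455 and POGZ_KO_8459 lie near the top and POGZ_VC_8451 at the bottom of every gene, and POGZ_KO_8454 lies below POGZ_VC_8447 and POGZ_VC_8448 for all genes except Cd36, where it lies between them.

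Among the genes of fatty acid uptake and transport, Fabp4 (ENSMUSG00000062515, chromosome 3, 10204088 to 10208576, minus strand, GRCm38) was the most abundant. It stood at 14.6, 58.8 and 62.0 CPM in tumors POGZ_KO_8454, POGZ_KO_8455 and POGZ_KO_8459 and at 28.4, 23.9 and 4.52 CPM in POGZ_VC_8447, POGZ_VC_8448 and POGZ_VC_8451. The KO group thus spans from below the higher VC tumors to above all of them. Lpl (chromosome 8, 68880491 to 68907448, plus strand), which encodes lipoprotein lipase, was at 10.1, 45.3 and 62.1 CPM in the KO tumors and at 14.2, 14.9 and 2.13 CPM in the VC tumors. The order of tumors was that of Fabp4, except that POGZ_VC_8448 lay above POGZ_VC_8447. Cd36 (chromosome 5, 17781690 to 17888801, minus strand), the fatty acid receptor, was at 11.5, 30.3 and 33.8 CPM against 21.01, 8.87 and 5.18 CPM. For Cd36, POGZ_KO_8454 lay above POGZ_VC_8448. Its highest KO tumor was 2.95 times its lowest, against 4.25 times for Fabp4 and 6.13 times for Lpl.

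Pparg (chromosome 6, 115360951 to 115490399, plus strand), the nuclear receptor of the program, varied least within the KO label. Its levels were 2.06, 3.30 and 3.78 CPM in KO tumors and 2.33, 2.16 and 0.531 CPM in VC tumors, with 1.83 times between the highest and the lowest KO tumor.

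The lipid droplet genes varied far more. Plin1 (chromosome 7, 79720218 to 79732903, minus strand) was at 0.0824, 3.45 and 2.38 CPM in KO tumors and at 0.637, 0.959 and 0 CPM in VC tumors. POGZ_KO_8454 held 1 Plin1 count and POGZ_KO_8455 held 45. Cidec (chromosome 6, 113424634 to 113435760, minus strand) was at 0.165, 4.52 and 4.51 CPM in KO tumors and at 0.849, 1.32 and 0 CPM in VC tumors. For both genes POGZ_KO_8454 fell between POGZ_VC_8451 and the other VC tumors.

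The secreted factors divided the tumors in the same way. Adipoq, for adiponectin (chromosome 16, 23146536 to 23158028, plus strand), was at 0.495, 7.21 and 4.35 CPM in KO tumors and at 1.91, 2.52 and 0 CPM in VC tumors. Cfd, for the complement protease adipsin (chromosome 10, 79890853 to 79892655, plus strand), was at 0.824, 22.3 and 19.0 CPM against 5.09, 6.24 and 0.133 CPM. The highest KO tumor was 27.1 times the lowest for Cfd and 14.6 times for Adipoq. Lep, for the satiety hormone leptin (chromosome 6, 29060220 to 29073877, plus strand), was the scarcest, at 0.0824, 1.53 and 0.739 CPM in KO tumors and 0.424, 0.120 and 0 CPM in VC tumors. It never exceeded 20 counts in a library. Retn, for resistin (chromosome 8, 3655770 to 3660110, plus strand), was at 0.0824, 1.61 and 1.395 CPM against 1.06, 1.80 and 0 CPM, the only gene whose highest tumor was a VC one. In POGZ_VC_8451, Adipoq, Plin1, Lep, Cidec and Retn had no count, and 3 counts there would be 0.399 CPM, the upper limit that a count of 0 allows.

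Per kilobase of the main transcript, which makes genes comparable, Fabp4 led in both groups, at 50.4 ± 29.6 CPM per kb in KO tumors and 21.1 ± 14.2 in VC tumors (SD, n = 3). Cfd came next, at 15.2 ± 12.5 CPM per kb in KO tumors and 4.14 ± 3.52 in VC tumors, followed by Lpl and Cd36 in KO tumors and by Cd36 and Lpl in VC tumors. Plin1 and Lep were last, with Lep at 0.241 ± 0.223 CPM per kb under KO and 0.0557 ± 0.0671 under VC. Of the 9 steps in this order, 3 in KO tumors (after Fabp4, Cd36 and Pparg) and 1 in VC tumors (after Fabp4) were wider than the larger SD of the genes on either side. That SD is a spread between tumors, and both genes of a step were measured in the same tumors. Among the narrower steps, the order held in all 3 KO tumors for Adipoq over Cidec, Retn over Plin1 and Plin1 over Lep. In all 3 VC tumors it held for Lpl over Adipoq. At the other narrower steps it held in 1 or 2 tumors.

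No gene of the 10 differed between KO and VC tumors by the test, although the fitted changes of all that could be tested were positive. Of the 10, 8 passed the filter on low counts (Plin1 and Lep did not), and 0 of these 8 were called by edgeR's quasi-likelihood test at a Benjamini-Hochberg adjusted p under 0.05. That is the rate of the whole table, where 0 of 17153 genes, 0.0%, were called. At an unadjusted p under 0.05 there were 956 genes, 530 of them higher in KO tumors, and 1 of the 8, Lpl. With DESeq2 66 genes were called, with 0 of the 8 among them and 2 of the 8 at an unadjusted p under 0.05; limma-voom gave 0 and 0 of the 8.

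Lpl had a log2 fold change of 1.94 ± 0.79 (SE; edgeR adjusted p = 0.861). The change of Cidec was 2.07 ± 1.17 and that of Cfd 1.89 ± 1.18. Adipoq followed at 1.46 ± 1.09, Fabp4 at 1.28 ± 0.70, Cd36 at 1.15 ± 0.56 and Pparg at 0.90 ± 0.52, with edgeR adjusted p from 0.861 to 0.884 for these 6. Retn stood at 0.11 ± 1.07 (edgeR adjusted p = 0.992), and this sign turned when POGZ_KO_8455, POGZ_KO_8459 or POGZ_VC_8451 was left out. The median over the 8 genes was 1.37, beside 0.02 over all genes tested. The groups overlapped for all 10 genes, where 4.96% of all genes tested had every KO tumor above every VC tumor. By an exact two-sided permutation test of mean CPM over the 6 tumors, p was 0.2 for Cd36, 0.3 for 8 genes and 0.9 for Retn, where 3 against 3 cannot go below 0.1. In bulk tumors, fewer fat cells and less RNA per fat cell cannot be told apart.

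These values leaned on single tumors. Without POGZ_KO_8454 the median over the genes tested was 1.97 (9 tested), 6 of them had an unadjusted p under 0.05 beside 2250 of all genes, and 0 were called. Lpl then stood at 2.39 ± 0.63 (edgeR adjusted p = 0.222). Without POGZ_VC_8448 the median was 2.26. Without POGZ_VC_8451 it was 0.85, and 0 genes of the 9 tested had an unadjusted p under 0.05.

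**Figure D2:**
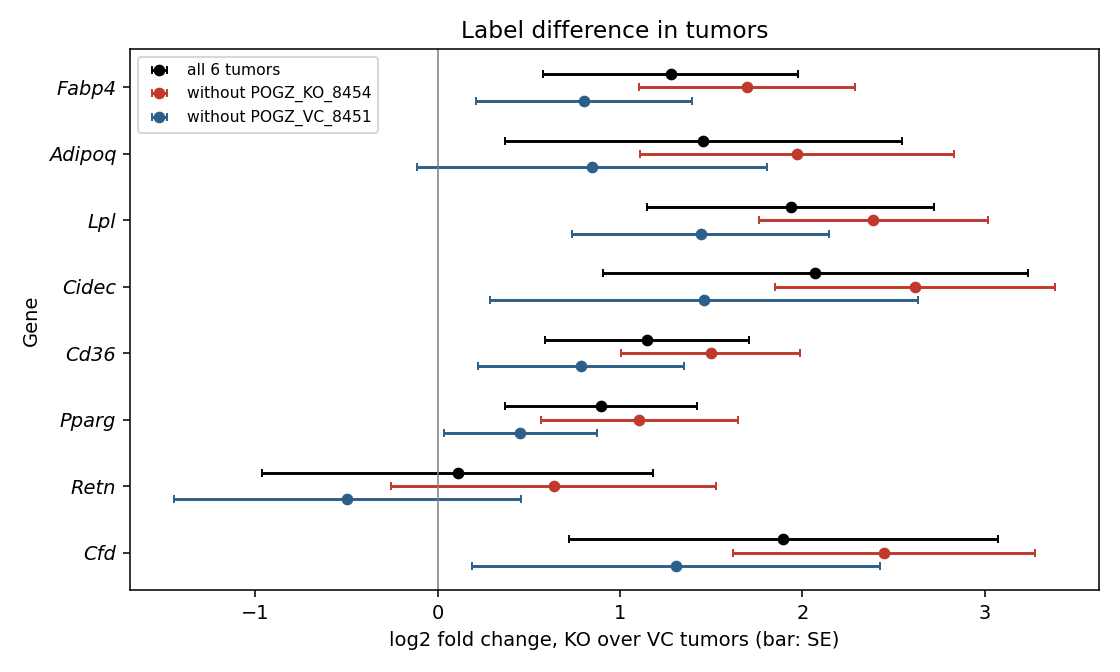
Fitted log2 fold change of KO over VC tumors (horizontal axis) with its SE as a bar for the 8 genes tested, with all 6 tumors in black, without POGZ_KO_8454 in red and without POGZ_VC_8451 in blue. Points lie farther right without POGZ_KO_8454 and farther left without POGZ_VC_8451; Retn changes sign, and no change was called in any of these fits.

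The mix of the 10 genes, and not their sum alone, differed between tumors. Summed over the 10 genes the level was 40.0 CPM in POGZ_KO_8454, 178 in POGZ_KO_8455 and 194 in POGZ_KO_8459, and 76.0, 62.7 and 12.5 CPM in POGZ_VC_8447, POGZ_VC_8448 and POGZ_VC_8451. Fabp4, Lpl, Cd36 and Pparg, a set chosen after the values were seen as those with known use outside fat cells, held 95.7% of these counts in POGZ_KO_8454 (exact Clopper-Pearson 95% interval 93.5 to 97.3) and 98.9% in POGZ_VC_8451 (94.2 to 100). They held 77.2% in POGZ_KO_8455 (75.5 to 78.9), 83.3% in POGZ_KO_8459 (81.8 to 84.8), 86.9% in POGZ_VC_8447 (82.9 to 90.2) and 79.3% in POGZ_VC_8448 (75.6 to 82.7). The intervals cover counting error only. Thus the tumors with the smallest sums, one of each label, had the largest shares of the 4. The other 6 genes summed to 1.73 CPM in POGZ_KO_8454 and 0.133 CPM in POGZ_VC_8451, against 9.97 to 40.6 CPM in the remaining tumors.

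**Figure D3:**
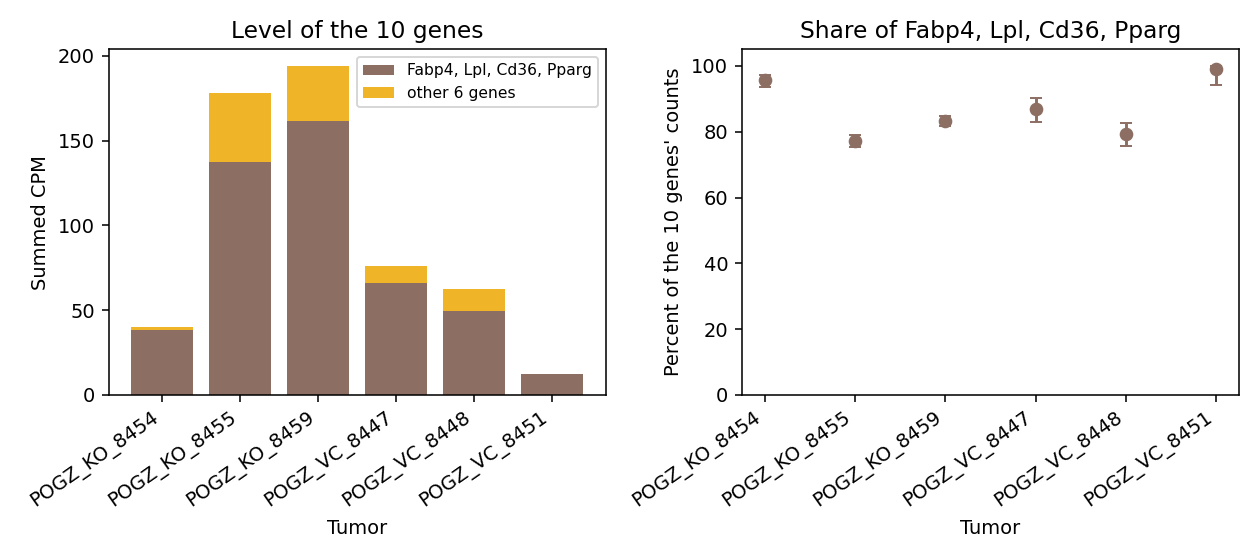
Left, summed CPM of the 10 genes in each tumor, split into Fabp4, Lpl, Cd36 and Pparg (brown) and the other 6 genes (yellow). Right, percent of the 10 genes' counts held by those 4, with exact 95% intervals as bars; POGZ_KO_8454 and POGZ_VC_8451 reach 95.7% and 98.9%, the other tumors 77.2% to 86.9%.

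Marker levels of the cells that also use these 4 genes were mixed, some ordered like the fat genes over the tumors and some not. The endothelial list summed to 494, 608 and 579 CPM in POGZ_KO_8454, POGZ_KO_8455 and POGZ_KO_8459 and to 644, 403 and 435 CPM in POGZ_VC_8447, POGZ_VC_8448 and POGZ_VC_8451, and 0 of its 14 markers was at 0 in any tumor. Its gene Pecam1 stood at 70.7, 102 and 116 CPM in the KO tumors and at 87.4, 51.9 and 61.5 CPM in the VC tumors, highest in POGZ_KO_8455 and POGZ_KO_8459. Cdh5 stood at 87.3, 90.3 and 70.8 CPM against 98.9, 46.6 and 45.3 CPM, highest in POGZ_VC_8447. The macrophage list summed to 1995, 1594 and 3571 CPM in the KO tumors and to 2465, 1214 and 1821 CPM in the VC tumors, again with 0 of 14 markers at 0. Adgre1, which encodes the macrophage marker F4/80, stood at 41.7, 35.5 and 54.1 CPM against 48.0, 21.2 and 42.1 CPM, and Cd68 at 30.2, 40.5 and 45.7 CPM against 35.7, 26.3 and 29.1 CPM. Cd68 also stood at 20.7 to 25.9 CPM in the cultures, where Adgre1 had no count. Over the 6 tumors, Pearson's r of log2(CPM + 1) with the mean of Adipoq, Plin1 and Cidec, as a description, ran from -0.29 to 0.83 over the 14 endothelial markers (median 0.39), with Tek highest, and from -0.32 to 0.82 over the 14 macrophage markers (median -0.07), with Cd163 highest. Across KO and VC tumors 0 of the 14 markers in either list were called. The part of these cells in the levels of the 4 genes was not tested.

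Cultures held almost none of this RNA. Over the 3 KO cultures the 10 genes had 18 counts in all, and over the 3 VC cultures 29, with 0 to 5 counts per gene and library. Adipoq had no count in any of the 6 cultures. Fabp4 was the highest, at 0.118 ± 0.0958 CPM in KO cultures and 0.184 ± 0.0893 CPM in VC cultures (SD, n = 3). None of the 10 passed the filter in the comparison of KO with VC cultures, so no label difference was detectable at this depth, while 47.9% of the 15705 genes tested there were called by edgeR.

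Against the cultures of their own label, the tumors held more RNA of these genes, and the sizes are given here as a description. With at most 5 counts in any culture, the 9 genes that entered the fit of 12 samples passed its filter through the tumors alone, so a call of higher was close to fixed and the calls support nothing. Under VC, 8 of these 9 were called higher by edgeR. Of the 18419 genes tested 37.9% were called higher, but those genes could pass the filter through either side, so the shares are not comparable. Cidec missed (adjusted p = 0.0737), and Lep did not pass the filter. Without POGZ_VC_8448, 5 of the 10 were called; the edgeR adjusted p of Plin1 then went from 0.0384 to 0.176 and that of Adipoq from 0.0196 to 0.0861, and Plin1 also lost its call without any of 6 other libraries. Under KO all 9 were called higher, with 37.7% of all genes called higher and the same limit. In 5 of the 9 genes under VC and 8 of the 9 under KO every tumor lay above every culture (39.1% of all genes under each label, read with the same limit).

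Pooled over 3 libraries each, Fabp4 was 97.9-fold higher in VC tumors than in VC cultures (95% counting interval 52.6 to 206) and 350.0-fold higher in KO tumors than in KO cultures (170 to 872). Lpl rose from 1 count in each culture group, with ratios of 552 under VC (98.0 to 21905) and 2120 under KO (380 to 83802). Cd36 had 1 count in VC cultures (ratio 565, interval 100 to 22432) and none in KO cultures, so that it was at least 455-fold higher in KO tumors when 3 counts over the group stand for none. The lower exact 95% limit of that ratio, which takes in counting error in the tumors, was 369. For these genes the counts in culture set the width of the interval.

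For Pparg the ratio was 29.3 under VC (9.20 to 149) and 54.8 under KO (18.3 to 270), from 3 counts in each culture group. Adipoq, against that limit of 3 counts (0.0547 CPM in VC and 0.0557 CPM in KO cultures), was at least 26.7-fold higher in VC tumors and at least 73.5-fold higher in KO tumors, with lower exact 95% limits of 20.4 and 59.1. Cfd was 41.1-fold higher under VC (16.9 to 130.0) and had a ratio of 767 under KO (137 to 30344). Retn, at 4 counts in each culture group, gave 13.3-fold under VC (4.47 to 53.6) and 14.1-fold under KO (5.07 to 54.1).

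Plin1 was at least 9.78-fold higher in VC tumors against the limit of 3 counts, with a lower exact 95% limit of 6.69, and its KO ratio was 108 (18.8 to 4326). Cidec was 10.0-fold higher by pooled counts under VC (3.19 to 41.4), without passing the test, and its KO ratio was 167 (29.4 to 6660). Lep had 3 counts in VC tumors and 1 in VC cultures, so no ratio is given; in KO tumors, with 30 counts, it was at least 14.4-fold higher against the limit of 3 counts (lower exact 95% limit 11.0). Whether the KO and VC labels differed in this rise could not be told at this depth. The test of the difference over the 12 samples needs a label effect in culture, where these genes had 0 to 5 counts per library. It called 0 of the 9 genes (377 of 18419 over all genes, 2.05%), and 0 had an unadjusted p under 0.05. The SE of the difference ran from 1.32 for Pparg to 4.82 for Lpl on the log2 scale, leaving out Adipoq, Plin1 and Cd36. The SE of these cannot be interpreted, since they had no count in the KO cultures, the VC cultures or both. These 0 calls say nothing about whether the labels differ.

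**Figure D4:**
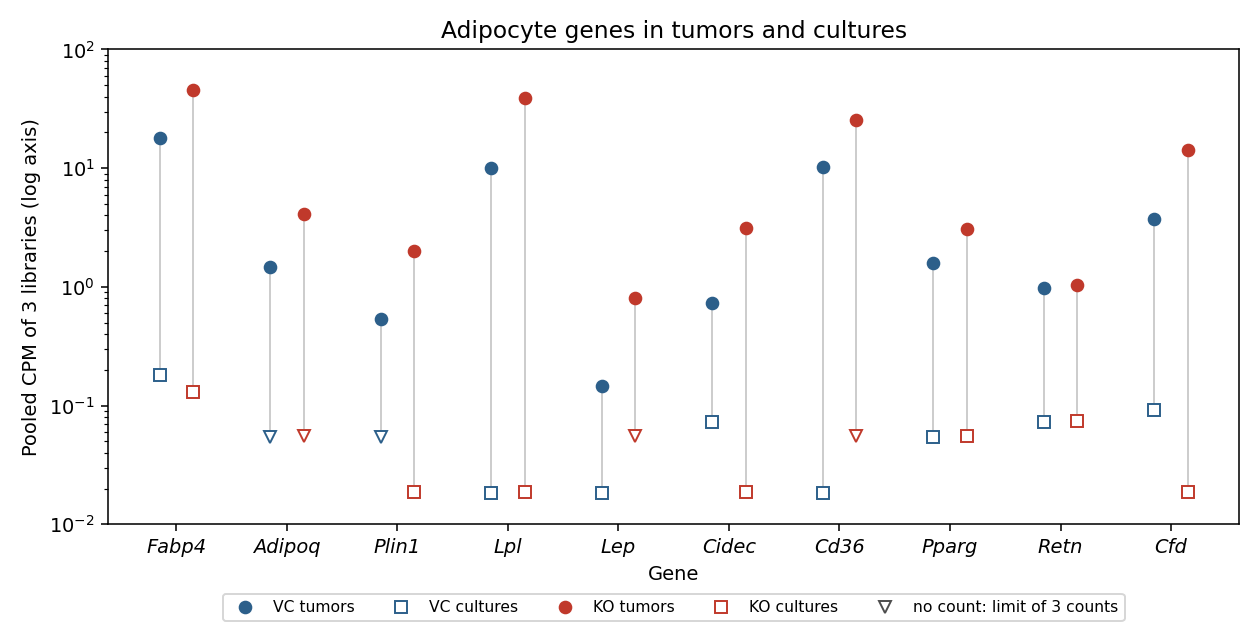
Pooled CPM of 3 libraries on a log axis for each gene, in tumors (filled circles) and cultures (open squares) of the VC (blue) and KO (red) labels, with open triangles at the limit of 3 counts where a culture group had no count. All 20 tumor points except VC Lep (0.146 CPM) lie above 0.5 CPM, and all culture points lie below 0.2 CPM.

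The other white adipocyte markers and the genes of triglyceride synthesis and lipogenesis differed in their counts of calls between tumors and cultures. Of 21 further white adipocyte markers 13 were tested, and 9 were called higher under VC and 11 under KO, none lower, by edgeR (37.9% and 37.7% of all genes were called higher). Genes of this list at near 0 in cultures also passed the filter through the tumors. Cebpa, the C/EBP factor that acts beside PPARG, was at 0.0180 CPM in VC cultures and 11.6 ± 2.77 CPM in VC tumors, and at 0.0305 CPM in KO cultures and 16.5 ± 6.52 CPM in KO tumors (SD, n = 3). By tumor, Cebpa was at 11.0, 14.7 and 23.7 CPM under KO and 13.8, 8.51 and 12.6 CPM under VC. That was not the order of Adipoq, Plin1 and Cidec, since POGZ_VC_8448 was lowest. Trarg1, which regulates glucose transporter traffic, went from 0.0718 to 1.395 CPM under VC and from 0.256 to 2.85 CPM under KO. Of 16 genes of triglyceride synthesis and lipogenesis tested, 1 was called higher and 10 lower under VC, and 2 higher and 8 lower under KO, beside 37.9% higher and 27.0% lower over all genes under VC, and 37.7% and 26.4% under KO. Fasn (fatty acid synthase) fell by 1.51 ± 0.15 (SE, log2) under VC, Acaca (acetyl-CoA carboxylase) fell by 1.16 ± 0.11 under VC and 1.0003 ± 0.11 under KO, and Acly (ATP citrate lyase) fell by 0.82 ± 0.10 and 0.95 ± 0.10. Scd2, a stearoyl-CoA desaturase, fell by 1.87 ± 0.19 under KO.

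The partners of the 10 gene products were mixed, and each count below is to be read against those shares of all genes, 37.9% higher and 27.0% lower under VC and 37.7% and 26.4% under KO. Of 12 lipolysis and droplet genes tested, 5 were higher and 3 lower under VC, and 6 higher and 1 lower under KO, near those shares under VC. Mgll, which encodes monoglyceride lipase, rose by 2.01 ± 0.32 under VC and 5.75 ± 0.41 under KO. Its KO value rests on KO cultures at 0.136 to 0.232 CPM, where 3 counts are 0.137 to 0.204 CPM. Fitm2, a droplet formation factor, fell by 1.18 ± 0.13 under VC and 1.51 ± 0.12 under KO. Among 13 lipoprotein lipase partners and uptake genes, 7 were higher and 5 lower under VC, and 7 higher and 3 lower under KO. Gpihbp1, which holds lipoprotein lipase at the capillary wall, had no count in any culture and stood at 7.14 ± 4.19 CPM in VC tumors and 7.97 ± 3.10 CPM in KO tumors (SD, n = 3). Among 12 adipokine receptors and complement partners, 8 were higher and 2 lower under VC and 10 higher and 1 lower under KO. Cdh13 (T-cadherin, which binds adiponectin) rose by 5.41 ± 0.34 under VC and 6.42 ± 0.37 under KO. Of 14 adipogenic transcription factors, 9 rose and 1 fell under VC and 10 rose and 1 fell under KO; Ebf1 rose by 4.09 ± 0.44 and 4.68 ± 0.44.

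Between KO and VC tumors, 0 genes of any of these lists were called. The 13 white adipocyte markers tested had a median log2 fold change of 0.81, with 10 positive and 3 negative and 1 at an unadjusted p under 0.05. Car3, a carbonic anhydrase abundant in fat, repeated the order of tumors seen above, at 1.98, 48.9 and 41.9 CPM in KO tumors and 7.003, 6.12 and 0 CPM in VC tumors (log2 fold change 2.87 ± 1.26, edgeR adjusted p = 0.861). The 15 lipogenesis genes had a median of 0.10, and the 12 lipolysis and droplet genes 0.11. Abhd5, the coactivator of triglyceride lipase, stood at 0.74 ± 0.28 (edgeR adjusted p = 0.861) and did not share that order, with 96.7, 62.5 and 50.0 CPM in KO tumors and 40.3, 32.5 and 52.5 CPM in VC tumors. Of the brown and beige fat genes only Dio2, a thyroid hormone deiodinase, was tested. It was at 120.5 CPM in POGZ_KO_8454 and 2.87 to 18.0 CPM in the other 5 tumors, and its log2 fold change of 1.78 ± 1.31 became -1.79 ± 0.57 without POGZ_KO_8454 (edgeR adjusted p = 0.883 and 0.282). Ucp1, which defines brown fat, was at 0 in 5 tumors and at 0.133 CPM in POGZ_VC_8451.

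The genes whose levels were most like Adipoq, Plin1 and Cidec over the 6 tumors were ranked by Pearson's r of log2(CPM + 1) with the mean of those 3, over 13626 genes with a mean of at least 1 CPM. These values describe 6 tumors that share their libraries and depths. The 10 genes themselves were not held to that minimum, and the means of Lep and Retn lie below it. Of them, Cfd was closest beyond the 3 used, at r = 0.990, then Fabp4 (0.938), Lpl (0.936), Lep (0.904), Retn (0.862), Pparg (0.854) and Cd36 (0.847). The nearest other genes were Gfpt2 (0.998), which encodes an enzyme of hexosamine synthesis, Cyp4f17 (0.993), Aldh1a3 (0.992), a retinaldehyde dehydrogenase, and Pck1 (0.991), the fat and liver enzyme of glyceroneogenesis. Ube2m (0.990), Gja4 (0.989), Aunip (0.988), Efemp1 (0.987), Gpd1 (0.986) and Plce1 (0.984) completed the 10. Pck1 and Gpd1, the glycerol-3-phosphate dehydrogenase, belong to the white adipocyte list. Over the genes of that list ranked here, r ran from -0.005 (Nrg4, rank 7531) to 0.991 (Pck1, rank 4). Lipe (0.532), Cebpa (0.517), Slc2a4 (0.408) and Lgals12 (0.217), named after their values were seen, also ranked far below the first 10. Gfpt2 stood at 5.36, 16.1 and 14.5 CPM in KO tumors and 8.49, 9.35 and 4.78 CPM in VC tumors. Pck1 stood at 0.0824, 5.06 and 3.04 CPM against 1.06, 1.80 and 0 CPM. A high r did not need a large range: Ube2m ran only from 45.4 to 53.9 CPM.

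**Figure D5:**
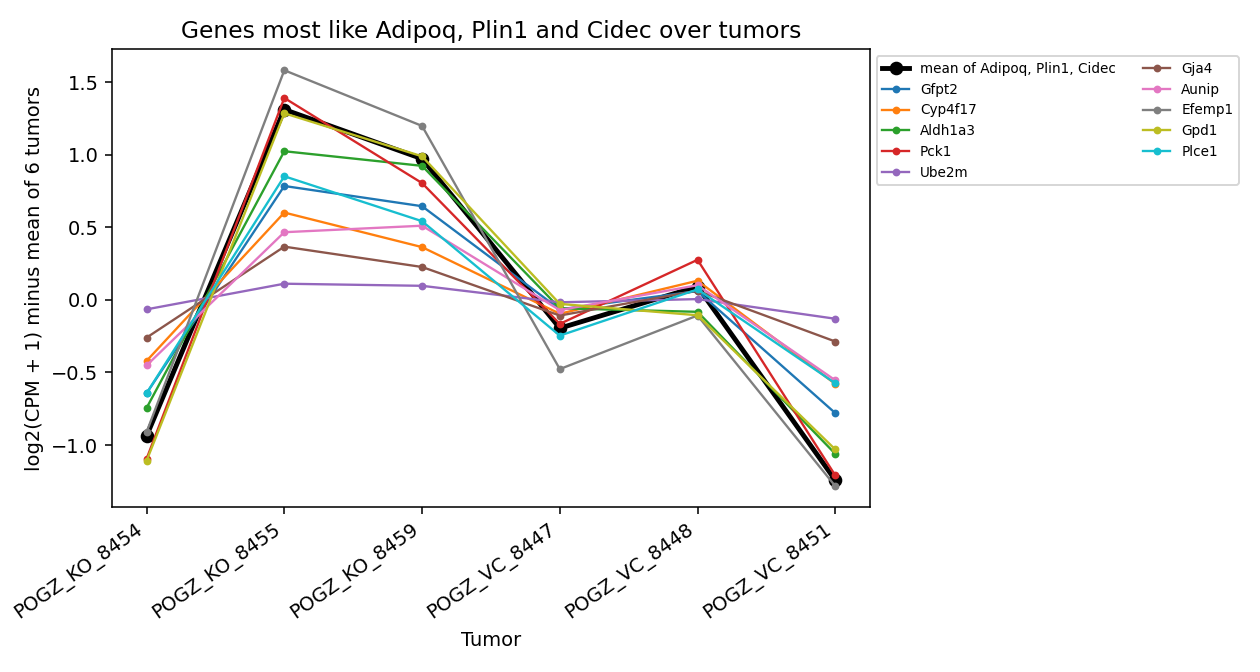
Level of the mean of Adipoq, Plin1 and Cidec (black) and of the 10 most alike genes, as log2(CPM + 1) minus each gene's mean of the 6 tumors, with the tumors along the horizontal axis; lines only join the points of 1 gene. All lines are highest in POGZ_KO_8455 or POGZ_KO_8459 and lowest in POGZ_KO_8454 or POGZ_VC_8451, with Ube2m the flattest.

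Genes of other fat pad tissues also appeared in this ranking, given here as chosen after their values were seen. Dpt (dermatopontin, of fat fibroblasts) ranked 14, Elf5 (of mammary luminal cells) 27, Sox10 (of Schwann cells) 29 and Scd1 45. Scd1 was at 35.1, 379 and 345 CPM in KO tumors and 77.9, 53.0 and 23.3 CPM in VC tumors, while the sum of its list ran only from 1294 to 1896 CPM. Elf5 was at 1.07, 10.1 and 13.5 CPM against 1.91, 3.72 and 0.133 CPM. The mammary luminal and milk list summed to 86.1, 206 and 716 CPM in KO tumors and to 81.9, 64.6 and 59.8 CPM in VC tumors. In cultures it already summed to 72.8 to 76.2 CPM under KO and 80.2 to 83.8 CPM under VC. Most of the sum in POGZ_VC_8451 was Esr1, at 52.1 CPM. Of the 8 genes of the milk list tested between KO and VC tumors, 4 had an unadjusted p under 0.05, beside 956 of all 17153 genes tested. By edgeR, 0 of the 8 were called. Csn1s1, Csn1s2a and Csn2, at 0 to 2.33 CPM in VC tumors, passed the filter through the KO tumors, so these counts support nothing. Csn2 (beta-casein) stood at 11.1, 32.4 and 229.6 CPM in KO tumors and at 2.33, 0.240 and 0.133 CPM in VC tumors. As for 4.96% of all genes tested, every KO tumor lay above every VC tumor for Csn2. Its log2 change was 6.97 ± 1.49 (SE; edgeR unadjusted p = 0.00172, adjusted p = 0.693), and by DESeq2 the adjusted p was 0.00724; over all alternatives it ran from 0.00724 to 0.9999. Lymph node B cell markers summed to 24.7, 79.5 and 551 CPM against 36.3, 14.6 and 13.3 CPM. Fibroblast markers summed to 4397, 8353 and 5886 CPM against 4939, 3191 and 4033 CPM, and skeletal muscle markers to 22.2, 151 and 82.5 CPM against 37.4, 94.4 and 54.1 CPM. Over all cultures the B cell list summed to 1.77 to 3.24 CPM, the fibroblast list to 89.0 to 94.2 CPM and the muscle list to 20.9 to 25.4 CPM. The muscle sum in POGZ_KO_8454 lay within that range of cultures. Thus POGZ_KO_8459 was highest for the milk and B cell lists and POGZ_KO_8455 for the fibroblast and muscle lists, and both were high for the fat genes. The part of these tissues in the levels of the 10 genes was not tested.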

How the data were processed

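RNA was measured by ribosomal-RNA-depleted sequencing (KAPA RNA Hyper Prep, per the labels' protocols) in 6 cultures and 6 tumors. The authors deposited raw counts per gene, 1 table for cultures and 1 for tumors; per the submitters' processing notes, reads were trimmed, aligned and counted against mm10 with tools that include featureCounts 1.4.4, STAR 2.3.0e and Trimmomatic 0.32. Strand setting and annotation release are not given in the sources used here. The whole-number counts were used unchanged. They were analysed in R 4.3.3 with edgeR 4.0.16 (filterByExpr, TMM, quasi-likelihood test, Benjamini-Hochberg adjustment over all genes tested, calls under 0.05). The SE printed with an edgeR log2 change was derived from that test. It is the absolute log2 change divided by the square root of the test's F statistic, and is approximate where counts are near 0. KO and VC were compared within 6 tumors and within 6 cultures. Tumors were compared with cultures, and the difference of the label effects was tested, in 1 fit of 12 samples. Tables were joined for this by Ensembl ID. CPM are counts scaled by the library's total. Per-kilobase levels use the longest principal transcript of GENCODE M21, which held 37607 of the 39017 IDs and gave the positions on GRCm38. Pooled ratios sum 3 libraries, with exact 95% counting intervals; a group with no count was given 3 counts over the group.

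The 10 genes, the 21 other lists and the rule for named genes were chosen with earlier results of these data known. The rule takes the 10 genes, up to 3 called genes with the smallest p per list and comparison (or those of highest mean), defining markers, and the 10 genes most alike over tumors; genes outside it are said to be chosen after their values were seen. Other settings, each changed alone, were scaling by RLE or upper quartile, filtering not at all or more strictly (CPM of at least 1 in 3 samples), DESeq2 1.42.0, limma-voom (limma 3.58.1), all 12 samples or only 6 in a fit, tumors thinned to 4712001 counts, a block for culture numbers, and leaving out each library. The fits of KO against VC tumors, KO against VC cultures and VC tumors against VC cultures were also run on simulated data. The outcome of those runs is not given here. Python 3.11.15, pandas 2.3.3 and scipy 1.17.1 made the remaining values.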

Additional observations from a re-analysis of the deposited data

Results flagged for a closer look

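Of 130 different genes in 9 lists of fat cells and their pathways 101 were tested, and 5 of them (4.95%) had a label effect that differed between tumors and cultures by the test of the difference itself, beside 377 of 18419 (2.05%) over all genes. Pdgfra, a receptor of fat progenitors that fibroblasts also carry, had a tumor effect 1.76 ± 0.18 above its culture effect (log2, SE; edgeR adjusted p = 0.000713). It stood at 15.3 to 16.2 CPM in KO cultures and 25.3 to 28.4 CPM in VC cultures. In tumors it was at 128, 126 and 91.7 CPM under KO and 58.6, 53.6 and 61.3 CPM under VC, with no overlap in either system. Of all genes tested in tumors, 4.96% had every KO tumor above every VC tumor. The share without overlap in cultures was not computed, and 47.9% of the genes tested there were called. Mgll, the monoglyceride lipase gene, had a tumor effect 3.74 ± 0.52 above its culture effect (log2, SE; edgeR adjusted p = 0.00416). It stood at 0.136 to 0.232 CPM in KO cultures and 1.52 to 2.38 CPM in VC cultures, without overlap. The KO culture levels lie near that of 3 counts, 0.137 to 0.204 CPM in these libraries, so the size of the difference rests on few counts. In tumors Mgll was at 6.35, 15.1 and 12.3 CPM under KO and 6.79, 9.83 and 7.84 CPM under VC, which overlapped. Klf4, a transcription factor of early adipogenesis, had a difference of 1.69 ± 0.28 (edgeR adjusted p = 0.00959), at 3.74 to 4.40 CPM in KO and 9.45 to 10.6 CPM in VC cultures, and at 18.2 to 23.2 CPM in KO and 10.5 to 19.3 CPM in VC tumors. Adipor2, an adiponectin receptor, had a difference of 0.85 ± 0.16 (edgeR adjusted p = 0.0192), at 90.6 to 92.7 CPM in KO and 140 to 152 CPM in VC cultures, and at 118 to 122 CPM in KO and 93.7 to 131 CPM in VC tumors. C1qtnf1, a paralog of Adipoq, had a difference of 1.003 ± 0.20 (edgeR adjusted p = 0.0234), at 11.2 to 12.9 CPM in KO and 15.7 to 16.8 CPM in VC cultures, and at 64.0 to 65.9 CPM in KO and 34.1 to 51.0 CPM in VC tumors. In all 5, KO cultures lay below VC cultures. Over the 19 alternatives of each gene the edgeR, DESeq2 or limma adjusted p ran up to 0.00558 for Pdgfra, 0.0239 for Mgll, 0.0403 for Klf4, 0.0707 for Adipor2 and 0.0874 for C1qtnf1.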

How the results depend on the processing

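No alternative called any of the 10 genes between KO and VC tumors or in the difference of label effects. Over all genes, KO against VC tumors gave 66 calls with DESeq2 and 64 with all 12 samples in 1 fit (0 otherwise), and KO against VC cultures gave 1501 with all 12 samples. VC tumors against VC cultures called 5 of the 10 genes with limma-voom, 3 of 3 tested with only the 6 samples of the label, and 5 to 9 leaving out 1 library (5 without POGZ_VC_8448); KO tumors against KO cultures called 5 of 5 tested with only 6 samples and 9 to 10 leaving out 1. The difference of label effects gave 953 genes with DESeq2 and 147 to 1588 leaving out 1 library (1588 without POGZ_KO_8454, 629 without POGZ_VC_8448, 147 to 165 without 1 culture). Leaving out 1 tumor, Retn between labels ran from -0.50 (without POGZ_VC_8451; -0.36 without POGZ_KO_8455, -0.18 without POGZ_KO_8459) to 1.19, and Dio2 from -1.79 (without POGZ_KO_8454) to 2.34. Plin1 under VC lost its call with limma-voom and without any of 7 libraries, Retn with limma-voom and without 3, Adipoq without POGZ_VC_8448, and Cfd with limma-voom. Cidec under VC passed with DESeq2 (adjusted p = 0.0433), with thinned tumors (0.0495), and without POGZ_KO_8454 (0.0149) or POGZ_VC_8451 (0.0339). Where fewer genes or samples entered, that is the alternative's construction; otherwise the cause was not tested. Culture numbers 1 to 3 did not pair the samples (same-number correlations -0.13, -0.004 and 0.06 over 13290 genes), and the replicate block gave 7237 genes called against 7523 and tested 0 of the 10 genes. Plin1 and Lep did not pass the filter between KO and VC tumors. POGZ_KO_8454, with 12128993 counts, held 1 count of each, and POGZ_VC_8451 held none. The part of the shallower VC tumors in this was not tested.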
